A study of Caenorhabditis elegans with 12 samples.

Results

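A set of 40 genes of the cell cycle and of DNA replication were followed in eggs of the nematode Caenorhabditis elegans, each chosen by its WormBase symbol. All 40 of 40 were found among the 25122 genes of the deposited table, and none had to be dropped for low values. RNA was taken from eggs of daf-16;daf-2;bcl-11 mutants, daf-2;bcl-11 mutants and daf-2 mutants, with 4 libraries for each of these 3 genotypes. The daf-2 allele was e1370 in every case, which reduces but does not abolish the function of the insulin/IGF receptor, and no wild-type egg and no daf-16;daf-2 egg with an intact bcl-11 was part of the comparison. The bcl-11 allele was bon125 in both genotypes that carry one, a hypomorphic frameshift that leaves the zinc fingers of this counterpart of mammalian BCL11A and BCL11B in place. The daf-16 allele was mu86, a deletion in the gene for the FOXO transcription factor that insulin signaling holds back. The parents were grown at 20°C on OP50-1 bacteria, eggs were released by bleaching, and they were held at 27°C for 2 h before extraction. By their labels, the genotypes of these warmed eggs differ in bcl-11 and daf-16. Eggs freed in this way come from whole adults and are of mixed embryonic stage.

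A cell divides by passing through a fixed order of events that cyclins and cyclin-dependent kinases (CDKs) drive. Origins of replication are first marked by the origin recognition complex and loaded with the MCM helicase, they then fire under the CDC-7 and CDK kinases, and mitosis follows when CDK-1 with B-type cyclins is switched on and later switched off by the anaphase-promoting complex (APC/C). In the C. elegans embryo the first divisions run quickly on products stored by the mother, and divisions become rarer as cells differentiate. The genes were grouped by role into 10 cyclins and CDKs, 7 CDK inhibitors, CDK-modifying enzymes and APC/C activators, 12 genes of origin recognition, licensing and the MCM helicase, 9 genes of origin firing, the replication fork and nucleotide supply, and 2 S-phase checkpoint kinases.

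The deposited values are regularized-log (rlog) values, that is, log2-transformed normalized counts with shrinkage of weakly expressed genes towards their average. Read numbers cannot be recovered from them, which leaves sequencing depth unknown, and levels are not compared between genes. The libraries were not strand-specific. As a check of the labels, daf-16 averaged 9.72 ± 0.14 in the daf-16;daf-2;bcl-11 mutants, 9.52 ± 0.07 in daf-2;bcl-11-labelled libraries and 12.12 ± 0.15 in daf-2 eggs (SD, n = 4 each). By its genotype daf-2;bcl-11 holds an intact daf-16, yet its libraries had as little daf-16 RNA as those with the deletion (change between both mutants 0.20, limma adjusted p = 0.793, against -2.60 for daf-2;bcl-11-labelled libraries relative to daf-2, adjusted p = 1.23e-08). For this reason the 4 libraries are referred to as daf-2;bcl-11-labelled, and every direction stated for them depends on the label. As daf-16 RNA was low in both sets of mutant libraries, neither comparison with daf-2 can separate bcl-11 from daf-16. bcl-11 averaged 9.10 ± 0.72 in the daf-16;daf-2;bcl-11 mutants, 9.28 ± 0.18 in daf-2;bcl-11-labelled libraries and 10.15 ± 0.37 in daf-2 eggs. It was called lower than in daf-2 eggs in both. The call was lost in 2 of 18 alternatives for the daf-16;daf-2;bcl-11 mutants and in 10 of 18 for daf-2;bcl-11-labelled libraries. bon125 by itself need not lower its own RNA, and the cause of the fall was not tested. The median of all genes in a library lay between 5.77 and 5.95 in the daf-16;daf-2;bcl-11 mutants, between 5.92 and 6.01 in daf-2;bcl-11-labelled libraries and between 6.36 and 6.50 in daf-2 eggs, which makes counts of changed genes depend on how libraries are scaled.

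The cell cycle and replication genes were higher in both mutants than in daf-2 eggs. Compared to daf-2 eggs, 31 of the 40 genes rose in the daf-16;daf-2;bcl-11 mutants, 28 rose in daf-2;bcl-11-labelled libraries, and 0 fell in either comparison. A gene was called when its adjusted p was below 0.05 (limma, Benjamini-Hochberg over all genes) and its change exceeded 1.5-fold. Among all 25122 genes, 6.38% were called higher and 16.2% lower in the daf-16;daf-2;bcl-11 mutants, and 7.00% higher and 15% lower (3759 genes) in daf-2;bcl-11-labelled libraries. Among the 16924 genes with a mean of at least log2(10), which include all 40, 9.46% and 10.4% were called higher in these comparisons. The median change of the 40 genes was 0.79 in the daf-16;daf-2;bcl-11 mutants and 0.83 in daf-2;bcl-11-labelled libraries, beside medians of -0.01 and -0.02 over all genes. Single changes were between 0.31 and 1.13 in the daf-16;daf-2;bcl-11 mutants and between 0.02 and 1.28 in daf-2;bcl-11-labelled libraries. The 4 daf-2 libraries serve in both comparisons, which are therefore not independent.

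**Figure D1:**
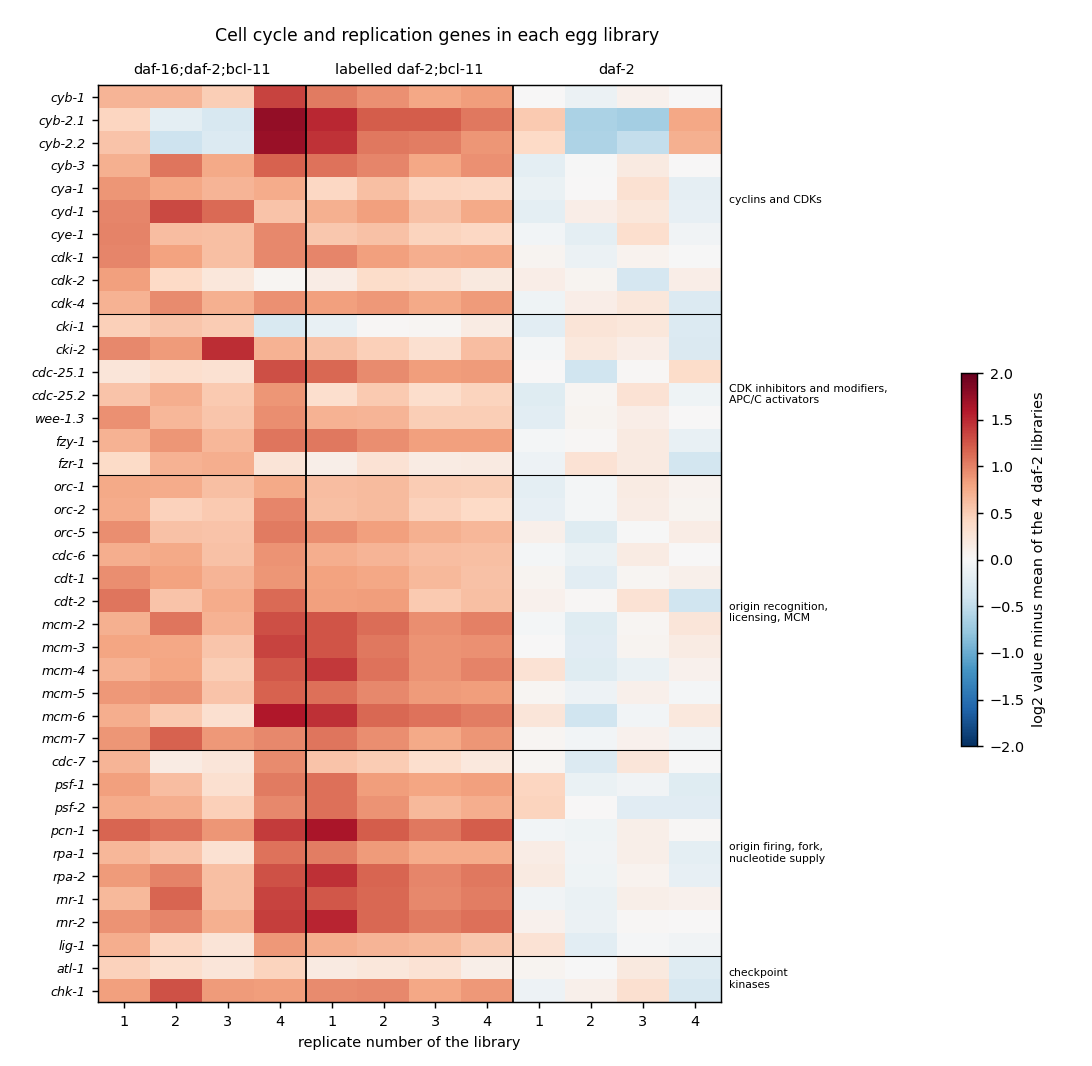
Each row is 1 of the 40 genes, ordered by role, and each column 1 library, by genotype and replicate number. Color gives the log2 value minus the mean of the 4 daf-2 libraries for that gene, from -2.0 in blue to 2.0 in red. The 8 mutant libraries are red for most genes, cki-1 is pale in daf-2;bcl-11-labelled libraries, and cyb-2.1 and cyb-2.2 are blue or red within 1 genotype.

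The separation was also seen library by library. The mean value over the 40 genes was 13.71, 13.65, 13.50 and 13.95 in the daf-16;daf-2;bcl-11 mutants, 13.85, 13.76, 13.63 and 13.65 in daf-2;bcl-11-labelled libraries, and 12.99, 12.85, 13.02 and 12.93 in daf-2 eggs, with replicates 1 to 4 in order. Every mutant library thus lay above every daf-2 library. All 4 values of a gene lay outside the range of daf-2 eggs for 31 genes in the daf-16;daf-2;bcl-11 mutants and for 36 genes in daf-2;bcl-11-labelled libraries, beside 29.8% and 35.3% of all genes. Among genes with a mean of at least log2(10), these shares were 38.3% and 48.3%. The shares count genes lying above or below daf-2 eggs. Mutant libraries were also compared with the daf-2 library of the same replicate number. In 4 of 4 such pairs, 36 genes were higher in the daf-16;daf-2;bcl-11 mutants and 38 in daf-2;bcl-11-labelled libraries. Among all genes these shares were 23.3% and 22.3%. Whether same-numbered libraries shared a batch is not stated in their titles. daf-16;daf-2;bcl-11 replicate 4 stood highest in its genotype, and without it 29 genes were called with a median change of 0.70.

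Scaling changes the size of the difference. Centring each library on its median shifted all changes by 0.54 in the daf-16;daf-2;bcl-11 mutants and 0.43 in daf-2;bcl-11-labelled libraries, and then 40 and 39 of the 40 genes were called higher, while 37.6% and 26.7% of all genes were called higher and 8.08% and 7.40% lower. With quantile normalization, 16 and 23 of the 40 genes were called higher, beside 9.06% and 8.80% of all genes higher and 10.5% and 10.4% lower. Under this scaling, cki-1 and fzr-1 took values of -0.19 and -0.01 in daf-2;bcl-11-labelled libraries, and none of the 40 genes was called lower.

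**Figure D2:**
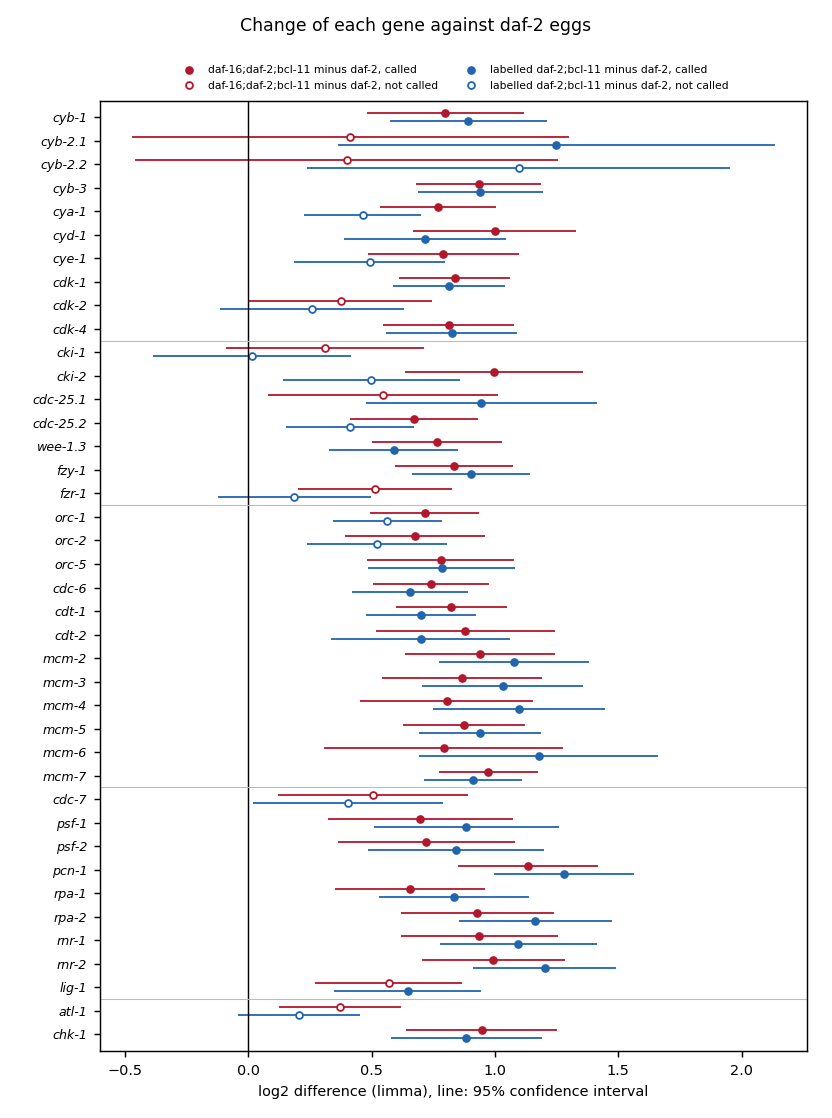
The change of each gene against daf-2 eggs is shown on a log2 scale, with daf-16;daf-2;bcl-11 in red above daf-2;bcl-11-labelled libraries in blue, and lines for the 95% confidence interval of the limma fit. Filled points passed both thresholds, 31 in red and 28 in blue, and all points lie right of 0.

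Of the 10 cyclins and CDKs, 7 rose in the daf-16;daf-2;bcl-11 mutants and 6 in daf-2;bcl-11-labelled libraries, with median changes of 0.79 and 0.82. The genes for CDK-1, the mitotic kinase, and for its partners cyclin B1 (cyb-1) and cyclin B3 (cyb-3), which drive entry into mitosis and anaphase, were among them. cyb-3 (WBGene00000868, WBcel235 chromosome V, 15395696 to 15397353) had 16.71, 17.06, 16.75 and 17.18 in the daf-16;daf-2;bcl-11 mutants, 17.07, 16.96, 16.77 and 16.91 in daf-2;bcl-11-labelled libraries, and 15.79, 15.99, 16.18 and 16.003 in daf-2 eggs. No mutant library came within the range of daf-2 eggs, and the ranges of both mutants overlapped each other. The changes of cyb-3 were 0.93 (SE 0.12, limma adjusted p = 5.34e-05) and 0.94 (SE 0.12, limma adjusted p = 8.55e-05), or 1.91-fold and 1.92-fold. cdk-1 (WBGene00000405, chromosome III, 9747472 to 9748852) had 14.99, 14.81, 14.60 and 14.97 in the daf-16;daf-2;bcl-11 mutants, 14.99, 14.82, 14.73 and 14.75 in daf-2;bcl-11-labelled libraries, and 14.06, 13.89, 14.08 and 13.99 in daf-2 eggs. Here too the lowest mutant library stood above the highest daf-2 library. The changes of cdk-1 were 0.84 (SE 0.11, limma adjusted p = 5.3e-05) in the daf-16;daf-2;bcl-11 mutants and 0.82 (SE 0.11, limma adjusted p = 0.000104) in daf-2;bcl-11-labelled libraries. For cyb-1 (WBGene00000865, chromosome IV, 10735216 to 10737177) the values were 15.06, 15.06, 14.87 and 15.73 in the daf-16;daf-2;bcl-11 mutants, 15.42, 15.30, 15.16 and 15.21 in daf-2;bcl-11-labelled libraries, and 14.39, 14.27, 14.47 and 14.39 in daf-2 eggs. daf-16;daf-2;bcl-11 replicate 4 was the highest of the 12 libraries. cyb-1 changed by 0.80 (SE 0.15, limma adjusted p = 0.000905) and 0.89 (SE 0.15, limma adjusted p = 0.000587).

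The cyclins and CDKs of G1 and S phase were not all called. cyd-1, the cyclin D gene that acts with CDK-4 at the start of the cycle (WBGene00000870, chromosome II, 12980591 to 12993117), had 13.31, 13.65, 13.46 and 12.91 in the daf-16;daf-2;bcl-11 mutants, 13.04, 13.15, 12.92 and 13.10 in daf-2;bcl-11-labelled libraries, and 12.14, 12.47, 12.56 and 12.17 in daf-2 eggs. All mutant libraries were above the daf-2 range, with daf-16;daf-2;bcl-11 replicate 4 the lowest of them, unlike for the B-type cyclins. The changes of cyd-1 were 1.00 (SE 0.15, limma adjusted p = 0.000231) in the daf-16;daf-2;bcl-11 mutants and 0.72 (SE 0.15, limma adjusted p = 0.00302) in daf-2;bcl-11-labelled libraries. cdk-4 rose by 0.81 and 0.82. The S-phase cyclins cye-1 (cyclin E) and cya-1 (cyclin A) rose by 0.79 and 0.77 in the daf-16;daf-2;bcl-11 mutants, while in daf-2;bcl-11-labelled libraries their changes were 0.49 (limma adjusted p = 0.0176) and 0.46 (limma adjusted p = 0.00592), under the fold threshold. Without replicate 3 of daf-2, cye-1 reached 0.60 in daf-2;bcl-11-labelled libraries and was called. cdk-2, whose kinase works with cyclin E, was called in neither comparison, with changes of 0.37 (limma adjusted p = 0.121) and 0.26 (limma adjusted p = 0.295).

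**Figure D3:**
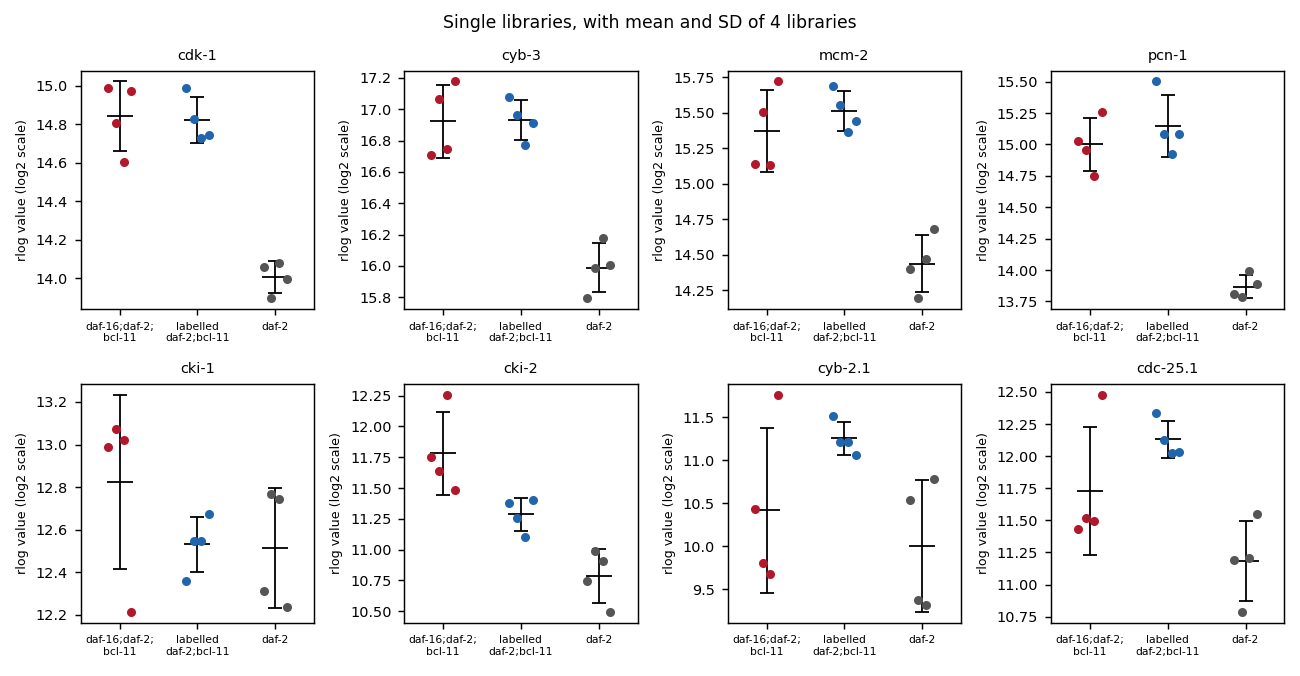
Each panel gives the rlog value (log2 scale) of 1 gene in every library, as points by genotype, with the mean and SD of 4 libraries as bars. cdk-1, cyb-3, mcm-2 and pcn-1 are higher in all 8 mutant libraries than in the 4 daf-2 libraries, while cki-1, cyb-2.1 and cdc-25.1 overlap between daf-16;daf-2;bcl-11 mutants and daf-2. The y axes do not start at 0.

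The closely related B-type cyclins cyb-2.1 and cyb-2.2 had the widest spread between replicates of the 40 genes in the daf-16;daf-2;bcl-11 mutants and in daf-2 eggs, and were singled out after their values were seen. cyb-2.1 (WBGene00000866, chromosome IV, 10985985 to 10987426) had 10.43, 9.80, 9.67 and 11.76 in the daf-16;daf-2;bcl-11 mutants, 11.52, 11.22, 11.21 and 11.06 in daf-2;bcl-11-labelled libraries, and 10.53, 9.37, 9.32 and 10.78 in daf-2 eggs. Replicates 1 and 4 were the high ones both for daf-16;daf-2;bcl-11 mutants and for daf-2 eggs. The change of cyb-2.1 was 0.41 (SE 0.41, limma adjusted p = 0.489) in the daf-16;daf-2;bcl-11 mutants and 1.25 (SE 0.41, limma adjusted p = 0.034) in daf-2;bcl-11-labelled libraries. This call was lost when any of the 4 daf-2;bcl-11-labelled libraries, or replicate 2 or 3 of daf-2, was left out, with changes between 1.02 and 1.31 and limma adjusted p between 0.0565 and 0.107. It was also lost without the variance trend (limma adjusted p = 0.066). Without daf-16;daf-2;bcl-11 replicate 4, the change of cyb-2.1 in the other comparison was -0.03, so that its direction there rested on this library. For cyb-2.2 (WBGene00000867, chromosome I, 4114861 to 4116370) the values were 11.87, 10.87, 11.01 and 13.01 in the daf-16;daf-2;bcl-11 mutants, 12.73, 12.34, 12.31 and 12.16 in daf-2;bcl-11-labelled libraries, and 11.68, 10.67, 10.81 and 11.99 in daf-2 eggs. The high and low libraries were those of cyb-2.1, and reads may have been shared between these paralogs. The change of cyb-2.2 was 1.32-fold (limma adjusted p = 0.492) and 2.14-fold (limma adjusted p = 0.0526), and the direction of the first rested on daf-16;daf-2;bcl-11 replicate 4, without which it was -0.04 on the log2 scale. With the replicate number as a block the adjusted p of the second change was 0.0129, and it was between 0.00982 and 0.0489 without replicate 4 of daf-2 or without daf-16;daf-2;bcl-11 replicate 2, 3 or 4.

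Of the 7 genes that restrain or release CDK activity, 4 rose in the daf-16;daf-2;bcl-11 mutants and 3 in daf-2;bcl-11-labelled libraries, with median changes of 0.67 and 0.50. fzy-1, the Cdc20 homolog that activates APC/C in mitosis (WBGene00001511, chromosome II, 5500770 to 5503912), had 14.91, 15.10, 14.87 and 15.28 in the daf-16;daf-2;bcl-11 mutants, 15.26, 15.13, 15.03 and 15.02 in daf-2;bcl-11-labelled libraries, and 14.17, 14.23, 14.38 and 14.05 in daf-2 eggs. Mutant and daf-2 libraries did not overlap. fzy-1 rose by 0.83 (SE 0.11, limma adjusted p = 8.17e-05) in the daf-16;daf-2;bcl-11 mutants and 0.90 (SE 0.11, limma adjusted p = 7.39e-05) in daf-2;bcl-11-labelled libraries. fzr-1, the Cdh1 homolog that activates APC/C outside mitosis and helps keep cells in G1, was called in neither, with changes of 0.51 (limma adjusted p = 0.0142) and 0.19 (limma adjusted p = 0.365). In the daf-16;daf-2;bcl-11 mutants fzr-1 passed the fold threshold without replicate 2 of daf-2 (0.61) or without daf-16;daf-2;bcl-11 replicate 4 (0.60).

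Both p27-related CDK inhibitors of the worm lie next to each other on chromosome II, and cki-2 was called in 1 comparison and cki-1 in neither. cki-1 (WBGene00000516, 7811240 to 7812105), which stops division in many cells that leave the cycle, had 12.99, 13.07, 13.02 and 12.21 in the daf-16;daf-2;bcl-11 mutants, 12.36, 12.54, 12.55 and 12.68 in daf-2;bcl-11-labelled libraries, and 12.31, 12.77, 12.74 and 12.23 in daf-2 eggs. The genotypes overlapped, and daf-16;daf-2;bcl-11 replicate 4 was far below its other replicates. Changes of cki-1 were 0.31 (SE 0.19, limma adjusted p = 0.238) and 0.02 (SE 0.19, limma adjusted p = 0.961), the second between -0.08 and -0.03 without replicate 1 or 4 of daf-2 or replicate 4 of daf-2;bcl-11-labelled libraries. cki-2 (WBGene00000517, 7816499 to 7820281) had 11.75, 11.64, 12.26 and 11.48 in the daf-16;daf-2;bcl-11 mutants, 11.38, 11.26, 11.11 and 11.40 in daf-2;bcl-11-labelled libraries, and 10.75, 10.99, 10.91 and 10.50 in daf-2 eggs. The 3 genotypes did not overlap, with daf-16;daf-2;bcl-11 mutants highest, daf-2;bcl-11-labelled libraries next and daf-2 eggs lowest. cki-2 rose by 1.00 (SE 0.17, limma adjusted p = 0.000454) in the daf-16;daf-2;bcl-11 mutants, and its change of 0.50 (SE 0.17, limma adjusted p = 0.0367) in daf-2;bcl-11-labelled libraries stayed under the fold threshold.

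The CDC25 phosphatases remove the inhibitory phosphate from CDK-1 that the WEE-1.3 kinase adds. cdc-25.1 (WBGene00000386, chromosome I, 6469386 to 6471922), which acts in the germline and early embryo, had 11.43, 11.52, 11.49 and 12.48 in the daf-16;daf-2;bcl-11 mutants, 12.34, 12.13, 12.03 and 12.03 in daf-2;bcl-11-labelled libraries, and 11.19, 10.79, 11.21 and 11.55 in daf-2 eggs. daf-16;daf-2;bcl-11 replicate 4 lay at the level of daf-2;bcl-11-labelled libraries, and its other replicates did not. The ranges of daf-16;daf-2;bcl-11 mutants and daf-2 eggs overlapped. The change of cdc-25.1 was 0.55 (SE 0.22, limma adjusted p = 0.0715) in the daf-16;daf-2;bcl-11 mutants and 0.95 (SE 0.22, limma adjusted p = 0.0048) in daf-2;bcl-11-labelled libraries. Without replicate 4 of daf-2, the first of these was 0.67 (limma adjusted p = 0.0464) and was called. cdc-25.2 rose by 0.67 (limma adjusted p = 0.000723) in the daf-16;daf-2;bcl-11 mutants, and changed by 0.41 (limma adjusted p = 0.0185) in daf-2;bcl-11-labelled libraries. wee-1.3 rose by 0.76 (limma adjusted p = 0.000305) and by 0.59 (limma adjusted p = 0.00251). The changes of wee-1.3, cdc-25.1 and cdc-25.2 were thus all positive, though cdc-25.1 and cdc-25.2 were each called in a single comparison. A further CDC25 gene outside the set, cdc-25.4, fell in both comparisons. The second rise of wee-1.3 was at the fold threshold, and was 0.52, 0.55 and 0.56 without replicate 1 of daf-2 or without replicate 1 or 2 of daf-2;bcl-11-labelled libraries, which ended the call.

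Origin recognition and licensing genes and the MCM helicase rose with few exceptions. In the daf-16;daf-2;bcl-11 mutants 12 of 12 rose, and in daf-2;bcl-11-labelled libraries 10 of 12, with median changes of 0.81 and 0.85. The MCM2-7 ring unwinds DNA ahead of the fork, and each of its 6 subunits rose in both comparisons. mcm-2 (WBGene00003154, chromosome II, 12001509 to 12006625) had 15.14, 15.50, 15.13 and 15.72 in the daf-16;daf-2;bcl-11 mutants, 15.69, 15.55, 15.37 and 15.44 in daf-2;bcl-11-labelled libraries, and 14.40, 14.19, 14.47 and 14.68 in daf-2 eggs. The lowest mutant library was above the highest daf-2 library, and mcm-2 rose by 0.94 (SE 0.14, limma adjusted p = 0.000207) and 1.08 (SE 0.14, limma adjusted p = 0.000114). mcm-4 (WBGene00003156, chromosome I, 2318291 to 2321817) had 14.90, 14.99, 14.70 and 15.44 in the daf-16;daf-2;bcl-11 mutants, 15.61, 15.28, 15.11 and 15.20 in daf-2;bcl-11-labelled libraries, and 14.49, 13.96, 14.07 and 14.29 in daf-2 eggs. Its mutant libraries were also all above daf-2, and mcm-4 rose 1.75-fold (SE 0.16 on the log2 scale, limma adjusted p = 0.00168) and 2.14-fold (SE 0.16, limma adjusted p = 0.000265). For mcm-6 (WBGene00003158, chromosome III, 9794367 to 9798644) the values were 15.22, 15.02, 14.81 and 16.09 in the daf-16;daf-2;bcl-11 mutants, 15.95, 15.64, 15.58 and 15.51 in daf-2;bcl-11-labelled libraries, and 14.73, 14.10, 14.44 and 14.70 in daf-2 eggs. It had the widest spread of the 6 subunits, with daf-16;daf-2;bcl-11 replicate 4 on top. mcm-6 rose by 0.79 (SE 0.23, limma adjusted p = 0.0145) and 1.18 (SE 0.23, limma adjusted p = 0.00152). Without daf-16;daf-2;bcl-11 replicate 4 the first change was 0.52, and without replicate 2 of daf-2 it was 0.66 (limma adjusted p = 0.0532), neither of which was called. The other subunits rose by 0.87 (mcm-3), 0.88 (mcm-5) and 0.97 (mcm-7) in the daf-16;daf-2;bcl-11 mutants, and by 1.03, 0.94 and 0.91 in daf-2;bcl-11-labelled libraries. mcm-7 had the smallest SE of the 40 genes (0.09).

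Upstream of the helicase, the licensing factors cdc-6 and cdt-1, which load MCM onto origins, rose by 0.74 and 0.82 in the daf-16;daf-2;bcl-11 mutants and by 0.66 and 0.70 in daf-2;bcl-11-labelled libraries. cdt-2, part of the ubiquitin ligase that removes CDT-1 once S phase starts, rose by 0.88 and 0.70. The second value was 0.57 without replicate 4 of daf-2 and was then not called. Of the origin recognition subunits, orc-5 rose by 0.78 in both comparisons. orc-1 and orc-2 rose by 0.71 and 0.68 in the daf-16;daf-2;bcl-11 mutants and changed by 0.56 (limma adjusted p = 0.00104) and 0.52 (limma adjusted p = 0.00853) in daf-2;bcl-11-labelled libraries, just under the fold threshold. orc-1 reached 0.59 to 0.62 there, and was called, without replicate 3 or 4 of daf-2 or replicate 4 of daf-2;bcl-11-labelled libraries. The rise of orc-2 in the daf-16;daf-2;bcl-11 mutants was 0.57 and not called without its replicate 4.

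At the fork, 7 of 9 genes rose in the daf-16;daf-2;bcl-11 mutants and 8 in daf-2;bcl-11-labelled libraries, with median changes of 0.72 and 0.88. pcn-1, which encodes PCNA, the clamp that holds polymerases on DNA (WBGene00003955, chromosome IV, 4047937 to 4049448), had the largest rise of the 40 genes in both comparisons. Its values were 15.03, 14.96, 14.75 and 15.26 in the daf-16;daf-2;bcl-11 mutants, 15.50, 15.08, 14.92 and 15.08 in daf-2;bcl-11-labelled libraries, and 13.81, 13.78, 13.99 and 13.89 in daf-2 eggs. A gap wider than the spread of any genotype separated mutant and daf-2 libraries. pcn-1 rose by 1.13 (SE 0.13, limma adjusted p = 3.04e-05), or 2.19-fold, in the daf-16;daf-2;bcl-11 mutants and by 1.28 (SE 0.13, limma adjusted p = 2.13e-05), or 2.43-fold, in daf-2;bcl-11-labelled libraries. rnr-2, the small subunit of ribonucleotide reductase, which makes deoxynucleotides (WBGene00004392, chromosome III, 4093308 to 4094921), had 16.31, 16.38, 16.12 and 16.78 in the daf-16;daf-2;bcl-11 mutants, 16.93, 16.55, 16.45 and 16.50 in daf-2;bcl-11-labelled libraries, and 15.49, 15.28, 15.43 and 15.42 in daf-2 eggs. No library of a mutant overlapped daf-2, and rnr-2 rose by 0.99 (SE 0.14, limma adjusted p = 9.35e-05) and 1.20 (SE 0.14, limma adjusted p = 3.78e-05). The large subunit, rnr-1, rose by 0.94 and 1.09. rpa-2, a subunit of the complex that coats single-stranded DNA (WBGene00019767, chromosome I, 4770292 to 4771358), had 15.24, 15.38, 14.98 and 15.67 in the daf-16;daf-2;bcl-11 mutants, 15.84, 15.56, 15.36 and 15.44 in daf-2;bcl-11-labelled libraries, and 14.56, 14.31, 14.46 and 14.22 in daf-2 eggs. It was higher in 8 of 8 mutant libraries than in any daf-2 library, and rose by 0.93 (SE 0.14, limma adjusted p = 0.000249) and 1.16 (SE 0.14, limma adjusted p = 7.81e-05).

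The remaining genes of this group had smaller changes. rpa-1 rose by 0.66 in the daf-16;daf-2;bcl-11 mutants, or 0.51 and not called without its replicate 4, and by 0.83 in daf-2;bcl-11-labelled libraries. The GINS subunits psf-1 and psf-2, which join MCM in the active helicase, rose by 0.70 and 0.72 in the daf-16;daf-2;bcl-11 mutants and by 0.88 and 0.84 in daf-2;bcl-11-labelled libraries. lig-1, the ligase that seals Okazaki fragments, changed by 0.57 (limma adjusted p = 0.00588) in the daf-16;daf-2;bcl-11 mutants and rose by 0.65 (limma adjusted p = 0.00319) in daf-2;bcl-11-labelled libraries. Both values of lig-1 were close to the fold threshold. The first was 0.62 to 0.67 and called without replicate 1 of daf-2 or daf-16;daf-2;bcl-11 replicate 2 or 3, and the second was 0.58 and not called without replicate 2 of daf-2. cdc-7, the kinase that fires licensed origins, was called in neither comparison, at 0.51 (limma adjusted p = 0.0437) and 0.41 (limma adjusted p = 0.107). In the daf-16;daf-2;bcl-11 mutants cdc-7 was called, at 0.59 to 0.62, without replicate 3 of daf-2 or daf-16;daf-2;bcl-11 replicate 2 or 3.

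Of the 2 checkpoint kinases, chk-1 rose in both comparisons and atl-1 was called in neither. chk-1, the kinase that holds the cycle when replication stalls (WBGene00000498, chromosome V, 3757153 to 3759469), had 13.37, 13.82, 13.40 and 13.38 in the daf-16;daf-2;bcl-11 mutants, 13.49, 13.50, 13.32 and 13.41 in daf-2;bcl-11-labelled libraries, and 12.45, 12.64, 12.87 and 12.23 in daf-2 eggs. All mutant libraries exceeded all daf-2 libraries, and chk-1 rose by 0.95 (SE 0.14, limma adjusted p = 0.0002) and 0.88 (SE 0.14, limma adjusted p = 0.000463). atl-1, the ATR homolog that activates CHK-1 (WBGene00000226, chromosome V, 9634849 to 9645595), had 12.92, 12.80, 12.71 and 12.91 in the daf-16;daf-2;bcl-11 mutants, 12.65, 12.69, 12.75 and 12.57 in daf-2;bcl-11-labelled libraries, and 12.52, 12.46, 12.66 and 12.20 in daf-2 eggs. The daf-2;bcl-11-labelled libraries overlapped daf-2, while daf-16;daf-2;bcl-11 mutants lay above it by a small margin. Its changes were 0.37 (SE 0.12, limma adjusted p = 0.0228) and 0.21 (SE 0.12, limma adjusted p = 0.204), under the fold threshold in both.

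Between daf-16;daf-2;bcl-11 mutants and daf-2;bcl-11-labelled libraries, 0 of the 40 genes were called (limma), beside 0.0119% of all genes. At an unadjusted p below 0.05 there were 4 (cya-1, cki-2, cdc-25.2 and fzr-1), or 10.0% of the 40, beside 6.03% of all genes. All 4 were higher in the daf-16;daf-2;bcl-11 mutants, with changes of 0.31 (95% confidence interval 0.07 to 0.54), 0.50 (0.14 to 0.86), 0.26 (0.00 to 0.52) and 0.33 (0.01 to 0.64), and adjusted p of 0.787 for each. The values of 3 of the 40 genes (cya-1, cye-1 and cki-2) did not overlap between the mutants, beside 4.32% of all genes. Across the 40 genes the changes between the mutants had a median of -0.0049 and a range from -0.84 (cyb-2.1) to 0.50 (cki-2). For cdk-1 the interval of the difference was -0.21 to 0.25, and for pcn-1 -0.43 to 0.14, so that differences inside these bounds could not be seen. Since daf-16 RNA was equally low in both sets of libraries, this comparison cannot be read as one of daf-16 present and absent.

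Differences between 2 genes within a library are left as they are by a shift common to all genes of that library, such as median centring, though not by quantile normalization, and 10 pairs were compared in each mutant with daf-2 (20 exact permutation tests over 70 arrangements, two-sided). The difference cki-1 minus cki-2 was 1.24, 1.44, 0.77 and 0.73 in the daf-16;daf-2;bcl-11 mutants, 0.98, 1.29, 1.44 and 1.27 in daf-2;bcl-11-labelled libraries, and 1.56, 1.78, 1.83 and 1.74 in daf-2 eggs. It was lower in every mutant library than in any daf-2 library, by 0.69 and 0.48 on average. The difference atl-1 minus chk-1 was -0.46, -1.02, -0.70 and -0.48 in the daf-16;daf-2;bcl-11 mutants, -0.85, -0.81, -0.57 and -0.84 in daf-2;bcl-11-labelled libraries, and 0.07, -0.18, -0.20 and -0.03 in daf-2 eggs. Again no mutant library overlapped daf-2, with changes of -0.57 and -0.68. fzy-1 minus fzr-1 was 1.02, 0.90, 0.64 and 1.51 in the daf-16;daf-2;bcl-11 mutants, 1.63, 1.34, 1.35 and 1.33 in daf-2;bcl-11-labelled libraries, and 0.76, 0.43, 0.69 and 0.91 in daf-2 eggs. Here daf-16;daf-2;bcl-11 mutants overlapped daf-2, and daf-2;bcl-11-labelled libraries all lay above it. Each of these 5 separations had p = 0.0286 (exact permutation test), the smallest that 4 against 4 libraries allow, which is 0.114 after Benjamini-Hochberg adjustment over the 20 tests, so that none passed. The other 15 tests, among them fzy-1 minus fzr-1 in the daf-16;daf-2;bcl-11 mutants (change 0.32, exact permutation p = 0.229), gave exact permutation p of 0.0571 or more. rnr-1 minus rnr-2 changed by -0.06 and -0.11, cdk-1 minus cdk-4 by 0.02 and -0.01, and cdt-1 minus cdt-2 by -0.06 and 0.0012.

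**Figure D4:**
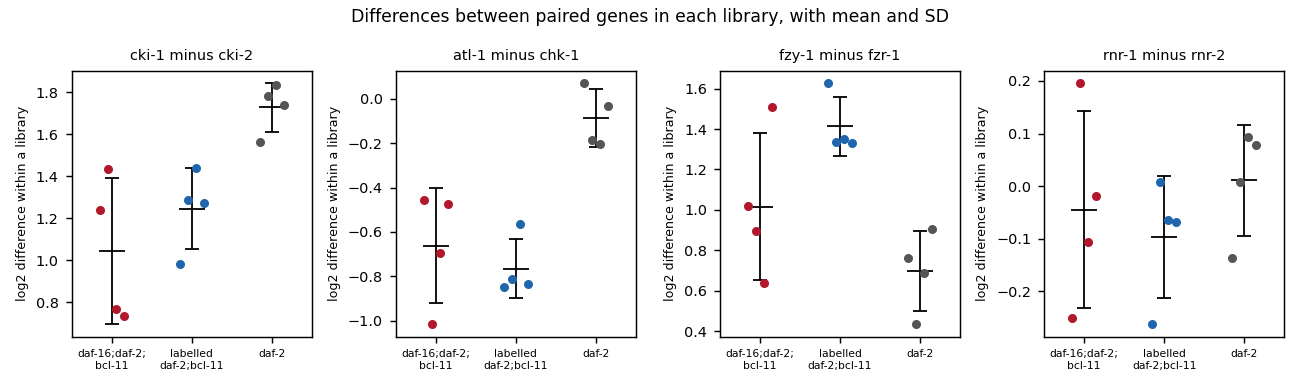
Points give the log2 difference between 2 genes within each library, by genotype, with the mean and SD of 4 libraries as bars. cki-1 minus cki-2 and atl-1 minus chk-1 are lower in all 8 mutant libraries than in the 4 daf-2 libraries, fzy-1 minus fzr-1 is higher in daf-2;bcl-11-labelled libraries, and rnr-1 minus rnr-2 overlaps between all genotypes. The y axes do not start at 0.

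Further genes of the same machinery were counted in lists grouped by function. For comparison, 6.38% of all genes were called higher in the daf-16;daf-2;bcl-11 mutants and 7.00% in daf-2;bcl-11-labelled libraries. Among genes with a mean of at least log2(10), these shares were 9.46% and 10.4%. Of 32 other replication genes (subunits of polymerases, clamp loaders, primase and nucleotide enzymes), 24 rose in the daf-16;daf-2;bcl-11 mutants and 27 in daf-2;bcl-11-labelled libraries, and 0 fell, with median changes of 0.72 and 0.75. The largest rises were those of crn-1 (1.01), a homolog of the flap endonuclease FEN1, and top-2 (0.99), a topoisomerase, in the daf-16;daf-2;bcl-11 mutants, and those of dut-1 (1.37), which breaks down dUTP, and tyms-1 (1.21), the thymidylate synthase, in daf-2;bcl-11-labelled libraries. Of 30 other cell cycle regulators, 13 rose in the daf-16;daf-2;bcl-11 mutants and 15 in daf-2;bcl-11-labelled libraries, with median changes of 0.54 and 0.63. Among called genes of this list, bub-3 (0.92) of the spindle checkpoint and mat-3 (0.90) of APC/C led in the daf-16;daf-2;bcl-11 mutants, and apc-10 (1.41) of APC/C and the spindle checkpoint gene mdf-2 (1.26) in daf-2;bcl-11-labelled libraries. The only gene of both lists that fell was cdc-25.4, a further CDC25 phosphatase gene, by 1.15 in the daf-16;daf-2;bcl-11 mutants and 0.93 in daf-2;bcl-11-labelled libraries. Of the 40 genes themselves, 26 had no exon overlapping an exon on the other strand, and 20 and 17 of these 26 rose. The overlaps of the other 14 were of at most 107 bp, in cya-1 with dos-1, and reads in them could not be assigned to a strand.

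Markers of embryonic stage also differed between the genotypes. Of 18 maternal and germline markers, 2 (11.1%, near the share of 9.46%) rose in the daf-16;daf-2;bcl-11 mutants and 17 (94.4%) in daf-2;bcl-11-labelled libraries. The median changes of these markers were 0.78 and 1.53. The called rises were those of the RNA-binding protein genes puf-3 (0.82) and mex-3 (0.63) in the daf-16;daf-2;bcl-11 mutants, and the largest in daf-2;bcl-11-labelled libraries were those of pos-1 (2.03) and mex-5 (1.88), which encode CCCH zinc finger proteins. Their mean level was 11.52, 11.21, 11.22 and 12.91 in the daf-16;daf-2;bcl-11 mutants, 12.80, 12.33, 12.25 and 12.20 in daf-2;bcl-11-labelled libraries, and 10.77, 10.59, 10.79 and 11.96 in daf-2 eggs. Replicate 4 stood above its group among daf-16;daf-2;bcl-11 mutants and daf-2 eggs. Of 15 early zygotic markers, 2 (13.3%) rose and 1 (6.67%) fell in the daf-16;daf-2;bcl-11 mutants, and 9 (60.0%) rose in daf-2;bcl-11-labelled libraries. The mean levels of these markers were 8.35 to 10.70 in the daf-16;daf-2;bcl-11 mutants, 10.02 to 10.47 in daf-2;bcl-11-labelled libraries and 8.27 to 9.54 in daf-2 eggs. Among them, end-1 (0.85), an endoderm GATA factor gene, and sdz-28 (0.64) rose and sdz-38 fell by 1.14 in the daf-16;daf-2;bcl-11 mutants, and pes-10 (2.13) and tbx-38 (2.04), a T-box factor gene, had the largest rises in daf-2;bcl-11-labelled libraries. Replicates 1 and 4 of this list were the highest in the daf-16;daf-2;bcl-11 mutants (9.33 and 10.70) and in daf-2 eggs (9.47 and 9.54), as were those of cyb-2.1 and cyb-2.2. Of 26 markers of differentiated embryonic tissue, 14 (53.8%) fell and 1 (unc-119) rose in each mutant. Among genes with a mean of at least log2(10), 23.5% were called lower in the daf-16;daf-2;bcl-11 mutants and 21.7% in daf-2;bcl-11-labelled libraries. The mean levels of the 26 markers were 12.36 to 13.06 in the daf-16;daf-2;bcl-11 mutants, 12.62 to 12.76 in daf-2;bcl-11-labelled libraries and 13.10 to 13.47 in daf-2 eggs. The largest falls were those of tnc-2, a troponin C gene, and the pharyngeal myosin gene myo-2 in the daf-16;daf-2;bcl-11 mutants, both by 1.56, and those of tnc-2 (by 1.15) and the body wall muscle myosin gene myo-3 (by 1.14) in daf-2;bcl-11-labelled libraries. daf-16;daf-2;bcl-11 replicate 4 was the highest library of its genotype both for the maternal markers (12.91) and for the 40 genes (13.95). daf-2 replicate 4 was the highest of its genotype for the maternal markers (11.96), above 3 of the 4 daf-16;daf-2;bcl-11 libraries. Its mean over the 40 genes was 12.93, within the daf-2 range of 12.85 to 13.02 and below those 4 libraries. The part of embryonic stage in the result was not tested. In whole eggs, fewer cells of a type and less RNA per cell cannot be told apart. Of 13 markers of parental tissue (yolk, sperm and adult cuticle), 0 were called in either comparison (limma), with 2 and 1 at an unadjusted p below 0.05, and their mean level was between 3.92 and 4.54 in all libraries.

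**Figure D5:**
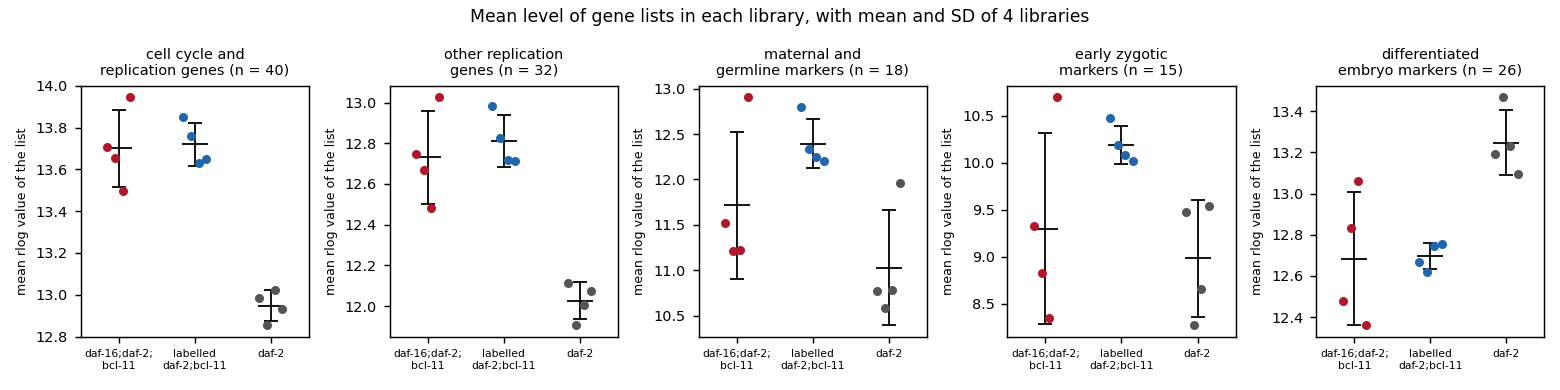
Each panel shows the mean rlog value of a gene list in every library, by genotype, with the mean and SD of 4 libraries as bars. The 40 cell cycle and replication genes and the 32 other replication genes are higher, and the 26 differentiated embryo markers lower, in all 8 mutant libraries than in the 4 daf-2 libraries, while the 18 maternal and the 15 early zygotic markers overlap between daf-16;daf-2;bcl-11 mutants and daf-2. The y axes do not start at 0.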

How the data were processed

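RNA of eggs was sequenced in 12 libraries, 4 for each of 3 genotypes, grouped by their GEO labels. From 5 ng of RNA, the authors made non-stranded Smart-seq2 libraries, demultiplexed reads with bcl2fastq 2.20 and estimated abundance with kallisto 048.0, and they deposited rlog values, which are normalized counts on a log2 scale. The test, the filter on low counts and the summing to genes are not given in the sources used here. Sequencing depth is therefore unknown, and intervals based on depth are left out.

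The deposited values were not normalized further. Of 25122 gene IDs, 23471 had a symbol, and coordinates came from Ensembl 115 (WBcel235). limma 3.58.1 in R 4.3.3 (eBayes with a trend) fitted all genes and all 12 libraries in 1 model, in which genotypes share the spread, with Benjamini-Hochberg adjustment over all genes. A gene was called at an adjusted p below 0.05 and a change over 1.5-fold. The study's methods name no test for the egg libraries. Nothing in the labels says that replicates come from separate cultures, so p-values measure the spread between these libraries, which may be technical. No libraries held identical values.

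The genes and lists were chosen with earlier results of these data known. Values per library are given for the 3 genes of each role with the largest mean change, and for cdk-1, pcn-1, cki-1 and cki-2. Within the other lists, the 2 largest rises and falls among called genes are named. Of the lists, cdc-45, rfc-5, vet-4 and ssp-9 could not be matched. Promoter motifs were planned but not analysed here.

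The replicate number in the title of each library was used as its batch number, and no title names a batch. Libraries were paired by replicate number only in the counts of same-numbered pairs, the correlations below and the alternative with a replicate block. The main limma fit and the permutation tests were unpaired. Correlations of deviations between same-numbered libraries were 0.04, 0.28, 0.16 and 0.38 between daf-16;daf-2;bcl-11 mutants and daf-2, and 0.13, -0.08, 0.18 and -0.10 between daf-2;bcl-11-labelled libraries and daf-2. Between the mutants they were -0.02, 0.02, 0.12 and -0.30. Alternatives were eBayes without a trend, only the 2 genotypes compared, a minimum mean of log2(10), median centring, quantile normalization, a replicate block, other fold thresholds and leaving out each library. Scripts were tested on simulated data. Figures were drawn with matplotlib 3.10.9 in Python 3.11.15.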

Additional observations from a re-analysis of the deposited data

Results flagged for a closer look

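Among the 129 groups of 4 libraries that were checked (40 genes and the 3 targeted genes in 3 genotypes), 8 held a library far from the other 3. Chance alone gives about 1 in 20, or 6.45. In the daf-16;daf-2;bcl-11 mutants, cki-1 was 12.21 in replicate 4 (mean of the others 13.03), cdc-25.1 was 12.48 in replicate 4 (others 11.48), orc-1 was 13.53 in replicate 3 (others 13.69) and chk-1 was 13.82 in replicate 2 (others 13.39). In daf-2;bcl-11-labelled libraries, cya-1 was 14.55 in replicate 2 (others 14.37) and psf-1 was 12.19 in replicate 1 (others 11.90). In daf-2 eggs, cdk-2 was 9.29 in replicate 3 (others 9.73) and cdt-1 was 12.95 in replicate 2 (others 13.22). Without daf-16;daf-2;bcl-11 replicate 4, which also held the highest maternal marker level of its genotype (12.91), the change of cki-1 against daf-2 was 0.51 and that of cdc-25.1 was 0.30, and neither was called.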

How the results depend on the processing

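No call of the 40 genes reversed under any alternative. Members called against daf-2 numbered 30 to 40 in the daf-16;daf-2;bcl-11 mutants and 27 to 39 in daf-2;bcl-11-labelled libraries when the variance trend, the genotypes fitted, the filter, the block, the fold threshold (none) or median centring was changed. A 2-fold threshold left 1 and 9 of them (31 and 28 at 1.5-fold), and quantile normalization left 16 (14 of the 31 shared) and 23. The median change of the 40 genes was 1.33 with median centring and 0.55 with quantile normalization in the daf-16;daf-2;bcl-11 mutants (0.79 as deposited), and 1.26 and 0.65 in daf-2;bcl-11-labelled libraries (0.83). Between the mutants it was 0.11 with centring (-0.0049), equal to the shift of all genes. With the replicate number as a block, 31 and 29 were called, and cyb-2.2 was the only change of call. Leaving out each library gave 29 to 33 and 26 to 29 calls, medians of 0.70 to 0.85 and 0.77 to 0.86, and 0 calls and medians of -0.07 to 0.06 between the mutants. Without daf-16;daf-2;bcl-11 replicate 4, 357 genes of the table, and 0 of the 40, differed between the mutants (3 with it). rlog shrinkage understates changes of genes with few reads, and promoter motifs were not run.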
